A study of Homo sapiens with 6 samples.

Results

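Wnt ligands, their receptors, their secreted antagonists and the core factors that answer to them were followed in H358, an established line from a human bronchioalveolar carcinoma. Members were chosen by gene symbol: WNT, FZD, SFRP or DKK followed by a digit, and 16 further named genes from LRP5 and LRP6 to ROR1 and ROR2. Of these names, TCF7 had no annotated probe and was not analysed here. In all, 52 of the 19090 genes with an annotated probe were members, and 28 of them lay above the dimmest 40% of annotated probes and entered the tests. Gene expression was measured with 1-colour Cy5 arrays, 1 array for each of 6 conditions. One H358 derivative carries YAP(5SA), a mutant of the coactivator YAP that lacks serines through which the Hippo kinases restrain it, and received IL-1b, TNFa or vehicle for 60 min. An H358 line carrying GFP, labelled control, received the same 3 treatments. The cytokine dose is not used here because its labelled unit is implausible, and what drives the transgenes or whether a line is 1 clone is not given in the labels.

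Wnt proteins are secreted ligands that bind frizzled receptors together with LRP5 or LRP6, and this stabilises beta-catenin, which joins TCF/LEF factors on DNA. RNF43 and ZNRF3 are membrane ubiquitin ligases that remove frizzled receptors from the surface, and R-spondins bound to LGR4 or LGR5 withdraw those ligases. Dickkopf and SFRP proteins act outside the cell, and AXIN2, NKD1, RNF43, ZNRF3 and LEF1 are textbook feedback targets of the pathway in many tissues. In the lung, Wnt signalling is known for its part in branching of the embryonic airway and in the alveolar stem cell niche.

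Median deposited intensity ran from 335.2 to 398.1 over the 6 arrays, and levels are given as log2(intensity + 16), a scale with a floor of 4 that understates differences of dim genes. There were no replicate arrays, so the line difference was read in 3 pairs of arrays with the same treatment. Its p-value came from limma with Benjamini-Hochberg adjustment over 12350 genes. It sets that difference against a variation over treatments taken mostly from all genes (34.3 prior against 2 residual degrees of freedom). The p-value and the limma SE therefore say little about how steady 1 gene was over the treatments. They do not measure a spread between cultures. With 1 line of each kind, the 2 lines cannot be told apart from whatever else differed between them, and the number of arrays limits the precision. Of 9 epithelial and lung markers, 5 lay above the filter: KRT18 (log2 16.62 to 17.78 over the 6 arrays), KRT7, CDH1, KRT8 and EPCAM. KRT18, KRT7, CDH1 and KRT8 averaged higher in the YAP(5SA) line, whereas EPCAM read 7.11 to 7.83 in the YAP(5SA) line and 8.21 to 8.66 in the GFP line. The lung lineage factor NKX2-1 (6.36 to 7.19), SFTPB, SFTPC and KRT19 lay below the filter, KRT19 with 5.00 to 5.73 in the YAP(5SA) line and 7.73 to 8.11 in the GFP line. The log2 of the summed epithelial marker intensities was 17.96 to 18.24 in the YAP(5SA) line and 17.14 to 17.53 in the GFP line, and its part in the results was not tested. Of the markers of other cell types, 1 of 4 leukocyte genes (CD68, 10.35 to 10.85), 3 of 7 fibroblast genes (COL1A1, 9.83 to 10.74, PDGFRA and PDGFRB) and 2 of 4 endothelial genes (CDH5 and VWF) lay above the filter. The log2 of the summed intensities was 10.40 to 10.57 in the YAP(5SA) line and 10.68 to 10.90 in the GFP line for leukocyte genes, 10.60 to 11.05 and 10.87 to 11.25 for fibroblast genes, and 9.82 to 9.98 and 9.36 to 10.00 for endothelial genes, and the part of these genes in the results was not tested. PDGFRB went against the fibroblast sum, with 8.28 to 8.48 in the YAP(5SA) line and 7.20 to 7.33, below the filter, in the GFP line. COL1A1 and PDGFRA overlapped between the lines. The leukocyte markers PTPRC (4.89 to 5.73) and CD3E and the fibroblast gene COL3A1 (4 to 5.05) were near the floor. The YAP1 probe gave 12.31, 12.08 and 11.67 in the YAP(5SA) line and 12.88, 12.46 and 12.91 in the GFP line under IL-1b, TNFa and vehicle, and was lower in the YAP(5SA) line (difference -0.73, limma adjusted p = 0.0120). Which part of the transcript it binds is unknown, so it does not check the label.

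The antagonist DKK1, the R-spondin receptor LGR4, the membrane ligases RNF43 and ZNRF3, 2 of 8 frizzled receptors, the co-receptor LRP6 and the ligands WNT7B and WNT10B were lower in the YAP(5SA) line than in the GFP line. DKK3, FZD1 and WNT3 were higher. Of 28 members tested, 9 fell and 3 rose at an adjusted p under 0.05, and 16 did not pass the test. Over all genes tested, 16.8% were called between the lines, 8.91% lower and 7.9% higher, against 42.9% of the members, 32.1% lower and 10.7% higher. In a bulk sample, fewer cells that make a transcript and less of it per cell cannot be told apart. The median log2 difference, YAP(5SA) minus GFP, was -0.20 over the 28 members and -0.01 over all 12350 genes. The direction was the same in all 3 pairs for 14 of the 28 members, 50%, near the 43.8% of all genes. Arrays of the lines did not overlap for 9 members that were lower and 3 that were higher, where 14.4% and 13.8% of all genes did so. These are the 9 that fell and DKK3, FZD1 and FZD6. RNF43 passed the filter through the GFP line alone, since its mean in the YAP(5SA) line lay below it, so its difference was partly fixed by the filter.

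**Figure D1:**
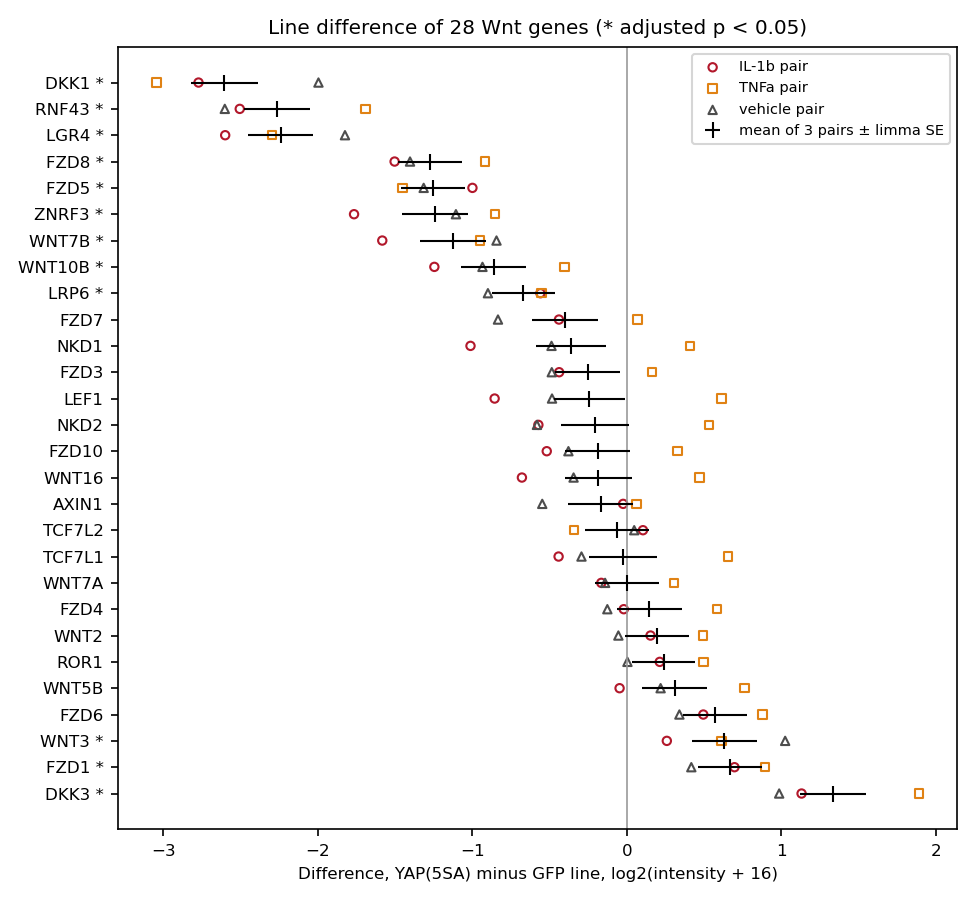
Log2 differences, YAP(5SA) minus GFP line, of the 28 Wnt genes above the filter, on the horizontal axis. Open symbols are the IL-1b, TNFa and vehicle pairs of arrays, and the tick with its bar is the mean of 3 pairs ± limma SE. DKK1, RNF43 and LGR4 reach -1.69 or lower in every pair, and DKK3 lies highest; in the middle of the plot the TNFa pair often lies to the right of 0 and the other pairs to the left.

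The secreted antagonists divided. DKK1, which blocks the co-receptors LRP5 and LRP6, had log2 levels of 10.61, 11.46 and 12.13 in the YAP(5SA) line under IL-1b, TNFa and vehicle, against 13.38, 14.50 and 14.12 in the GFP line. All 3 arrays of the YAP(5SA) line lay below all 3 of the GFP line. DKK1 fell by 2.60 ± 0.22 (limma SE, 3 pairs, adjusted p = 2.74e-12), which is 6.08-fold higher in the GFP line, the largest difference among the 28 members. DKK3, a divergent member of the Dickkopf family, had 11.60, 11.30 and 11.20 in the YAP(5SA) line, against 10.47, 9.41 and 10.21 in the GFP line. Here the YAP(5SA) arrays were the higher ones, again without overlap. DKK3 rose by 1.34 ± 0.21 (limma adjusted p = 6.78e-06), 2.52-fold. DKK2, DKK4, SFRP1, SFRP2, SFRP4 and SFRP5 lay below the filter.

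Promoter sequences are shown for the 3 members with the largest falls and for WNT3, which rose, because TEAD factors carry YAP to DNA and TCF/LEF factors carry beta-catenin. They run from 250 bases before to 50 bases after the RefSeq start site on GRCh38.p14, at chr10:52314031-52314330 (plus strand) for DKK1, chr11:27472741-27473040 (minus strand) for LGR4, chr17:58417485-58417784 (minus strand) for RNF43 and chr17:46818643-46818942 (minus strand) for WNT3. Capitals mark matches, on either strand, to the TEAD core GGAATG or to the TCF/LEF core CTTTGNN with A or T at each N.
DKK1: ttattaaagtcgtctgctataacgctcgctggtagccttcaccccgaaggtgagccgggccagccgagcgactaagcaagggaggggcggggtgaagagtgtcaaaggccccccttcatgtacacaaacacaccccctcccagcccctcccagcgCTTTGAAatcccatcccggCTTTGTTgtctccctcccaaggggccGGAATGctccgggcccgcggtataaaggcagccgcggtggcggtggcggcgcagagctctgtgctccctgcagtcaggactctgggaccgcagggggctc
LGR4: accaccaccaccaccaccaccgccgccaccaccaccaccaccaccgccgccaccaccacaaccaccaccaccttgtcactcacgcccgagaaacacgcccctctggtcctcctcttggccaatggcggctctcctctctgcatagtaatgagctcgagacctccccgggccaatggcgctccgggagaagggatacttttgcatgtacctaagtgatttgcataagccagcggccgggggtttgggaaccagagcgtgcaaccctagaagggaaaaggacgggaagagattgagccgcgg
RNF43: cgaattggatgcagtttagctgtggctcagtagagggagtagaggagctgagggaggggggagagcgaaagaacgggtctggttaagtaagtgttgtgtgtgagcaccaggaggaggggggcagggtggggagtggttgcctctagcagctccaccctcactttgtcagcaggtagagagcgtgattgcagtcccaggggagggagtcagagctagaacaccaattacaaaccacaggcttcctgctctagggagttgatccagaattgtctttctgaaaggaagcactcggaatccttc
WNT3: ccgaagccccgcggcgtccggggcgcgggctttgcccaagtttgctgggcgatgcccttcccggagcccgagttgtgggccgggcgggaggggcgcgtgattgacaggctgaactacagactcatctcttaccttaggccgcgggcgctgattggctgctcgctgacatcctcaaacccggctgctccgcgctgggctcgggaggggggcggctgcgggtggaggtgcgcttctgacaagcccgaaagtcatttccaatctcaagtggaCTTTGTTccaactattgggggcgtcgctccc
Among these 4, DKK1 held a TEAD match whose first base lies at -50 from the start site, and TCF/LEF matches at -95 and -76. WNT3 held a TCF/LEF match at 20. LGR4 and RNF43 held neither in this window. Promoters of 35 of the 52 members were in the RefSeq table: 2 held the TEAD core and 2 the TCF/LEF core, 5.71% in each case. Over 27305 promoters of the same length the shares were 14.0% and 13.9%. The TEAD core was held by DKK1 and by WNT16, which had no line call, and the TCF/LEF core by DKK1 and WNT3. FZD1, which rose by more than WNT3, was not printed and held neither core. The 2 motifs overlapped in 11 of all promoters and in none of those printed. A match describes letters and not a bound site.

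At the R-spondin receptor and ligase step, each of the 3 members above the filter fell. LGR6, an R-spondin receptor outside the symbol rule, differed by -0.28 and did not pass the test (limma adjusted p = 0.423). LGR4, a receptor for R-spondins, had log2 levels of 8.76, 9.78 and 9.87 in the YAP(5SA) line under IL-1b, TNFa and vehicle. In the GFP line it had 11.36, 12.08 and 11.69. It fell by 2.24 ± 0.21 (limma adjusted p = 6.29e-11), with the lowest GFP array well above the highest YAP(5SA) array. RNF43 had 6.97, 7.02 and 6.81 in the YAP(5SA) line, against 9.48, 8.71 and 9.41 in the GFP line. The YAP(5SA) arrays were nearly level with each other, and the GFP line was 4.81-fold higher (difference -2.27 ± 0.21, limma adjusted p = 7.77e-11). RNF43 averaged 6.93 in the YAP(5SA) line, below the filter at 7.79, so this difference was partly fixed by the filter. ZNRF3, the paralog of RNF43, had 9.72, 10.11 and 10.08 in the YAP(5SA) line, against 11.49, 10.96 and 11.19 in the GFP line. It fell by 1.24 ± 0.21 (limma adjusted p = 2.15e-05). A second probe of ZNRF3 gave pair differences of -0.82, 0.23 and -0.57, a mean of -0.39 that did not pass when each probe was tested on its own (limma adjusted p = 0.258), so its fall rests on 1 of 2 probes. LGR5, an intestinal stem cell marker, lay below the filter, with levels of 4 to 5.45.

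**Figure D2:**
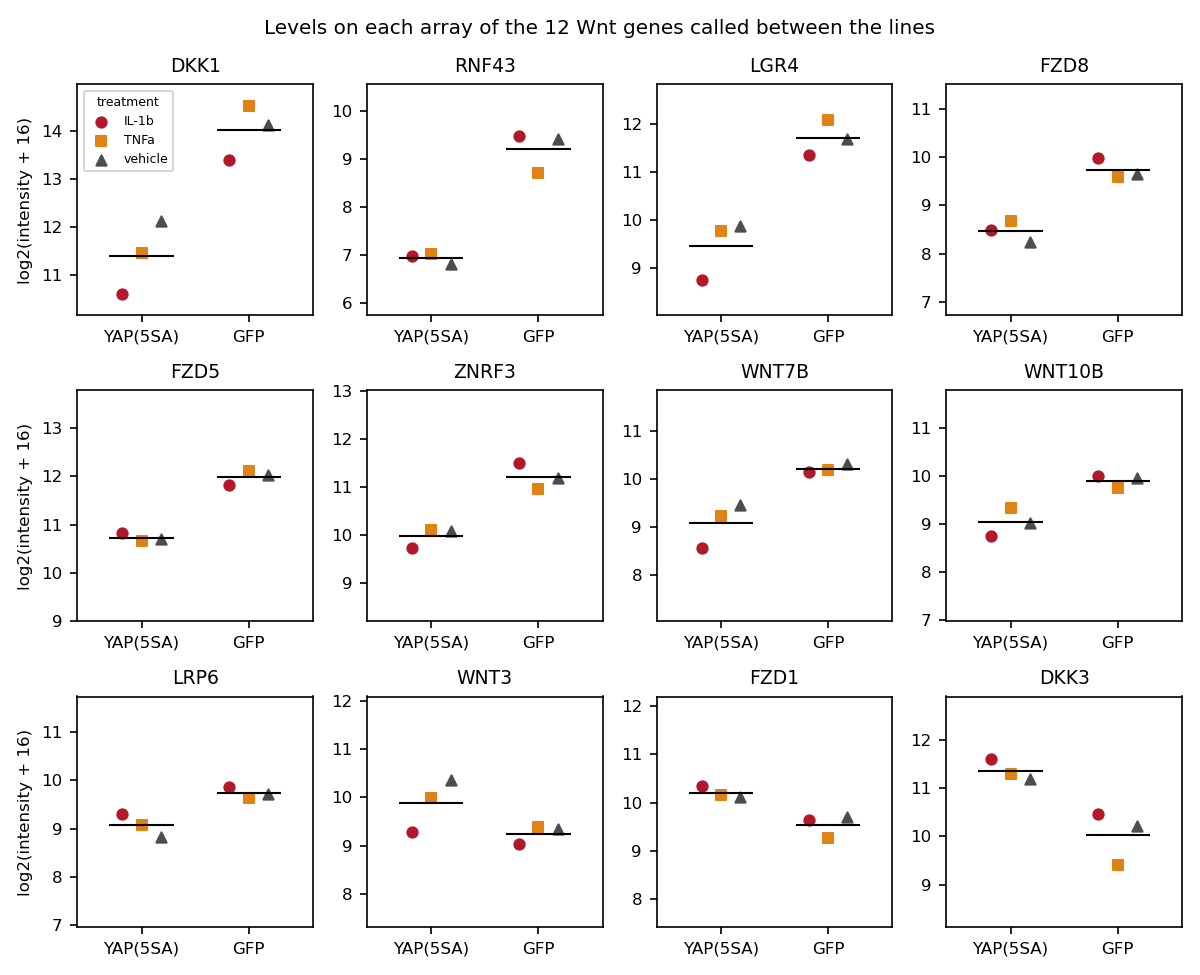
Levels, log2(intensity + 16), of the 12 members called between the lines, 1 panel a gene, with the YAP(5SA) line on the left and the GFP line on the right. Symbols are single arrays under IL-1b, TNFa and vehicle, and bars are means of 3 arrays; all panels span the same height, so gaps can be compared. The lines separate fully in every panel but that of WNT3.

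Among the frizzled receptors, 2 fell, 1 rose and 5 did not pass the test. FZD8 had log2 levels of 8.48, 8.68 and 8.24 in the YAP(5SA) line under IL-1b, TNFa and vehicle, against 9.98, 9.59 and 9.65 in the GFP line. It fell by 1.28 ± 0.21 (limma adjusted p = 9.24e-06). FZD5 had 10.82, 10.66 and 10.71 in the YAP(5SA) line, against 11.82, 12.11 and 12.02 in the GFP line. It fell by 1.26 ± 0.21 (limma adjusted p = 1.02e-05), with little spread within either line at this probe. A second, dimmer probe of FZD5 gave nearly the same mean difference, -1.27 (limma adjusted p = 1.58e-05 over all probes). Its spread was wider, 6.95 to 8.27 in the YAP(5SA) line and 8.43 to 9.39 in the GFP line, without overlap. FZD1 went the other way, with 10.34, 10.16 and 10.11 in the YAP(5SA) line, against 9.64, 9.27 and 9.69 in the GFP line. FZD1 rose by 0.67 ± 0.21 (limma adjusted p = 0.0187), but the call was lost without the IL-1b pair (0.66) or without the TNFa pair (0.56), and with no filter on dim probes. FZD6, known from planar polarity, had 12.70, 12.80 and 12.84 in the YAP(5SA) line, against 12.21, 11.93 and 12.50 in the GFP line. Its arrays did not overlap, yet its difference of 0.57 ± 0.21 missed the threshold (limma adjusted p = 0.0528); with each array centred on its median it passed. FZD7 averaged 9.85 ± 0.25 in the YAP(5SA) line and 10.25 ± 0.34 in the GFP line (SD, n = 3 arrays each). FZD3 averaged 8.82 ± 0.08 in the YAP(5SA) line and 9.07 ± 0.39 in the GFP line. FZD10 averaged 9.11 ± 0.31 in the YAP(5SA) line and 9.30 ± 0.14 in the GFP line, and FZD4 averaged 9.34 ± 0.22 in the YAP(5SA) line and 9.20 ± 0.16 in the GFP line. None of these passed the test, with differences of -0.40, -0.25, -0.19 and 0.15 for FZD7, FZD3, FZD10 and FZD4. FZD2 and FZD9 lay below the filter.

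LRP6, the co-receptor that beta-catenin signalling needs, was lower in the YAP(5SA) line. Its levels were 9.31, 9.08 and 8.82 in the YAP(5SA) line under IL-1b, TNFa and vehicle, against 9.87, 9.63 and 9.72 in the GFP line. The arrays did not overlap, and LRP6 fell by 0.67 ± 0.21 (limma adjusted p = 0.0180). Leaving out the IL-1b pair (-0.73) or the vehicle pair (-0.56) ended the call, and so did testing with no filter on dim probes. A second LRP6 probe gave a larger mean difference, -0.93 (limma adjusted p = 0.00105 over all probes). ROR1, a receptor of the beta-catenin-independent branch, averaged 10.94 ± 0.13 in the YAP(5SA) line and 10.71 ± 0.26 in the GFP line (SD, n = 3 arrays each), and its difference of 0.24 did not pass the test. The 3 ROR1 probes gave differences of 0.12, 0.24 and 0.63, of which the last passed when each probe was tested on its own (limma adjusted p = 0.0368). LRP5 and ROR2 lay below the filter.

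Of 19 WNT ligand genes with a probe, 7 lay above the filter, and of these 2 fell, 1 rose and 4 did not pass. WNT7B, a ligand expressed in the airway epithelium during lung development, had log2 levels of 8.56, 9.23 and 9.46 in the YAP(5SA) line under IL-1b, TNFa and vehicle, against 10.14, 10.18 and 10.31 in the GFP line. The GFP arrays were tightly grouped and lay above all YAP(5SA) arrays, of which the IL-1b array was lowest. WNT7B fell by 1.13 ± 0.21 (limma adjusted p = 8.21e-05). A second WNT7B probe, below the filter, gave pair differences of -0.74, -0.62 and 0.27 under IL-1b, TNFa and vehicle. Its mean was -0.36, and its arrays overlapped between the lines. WNT10B, an activator of beta-catenin signalling, had 8.76, 9.34 and 9.03 in the YAP(5SA) line, against 10.00, 9.74 and 9.96 in the GFP line. It fell by 0.86 ± 0.21 (limma adjusted p = 0.00254). Without the IL-1b pair the calls of WNT7B (-0.90) and WNT10B (-0.67) were lost. WNT3 had 9.29, 9.99 and 10.36 in the YAP(5SA) line, against 9.03, 9.38 and 9.34 in the GFP line. These arrays overlapped, since the YAP(5SA) IL-1b array lay below 2 GFP arrays. WNT3 rose by 0.63 ± 0.21 (limma adjusted p = 0.0315), and the call was lost without the vehicle pair (0.44) or the IL-1b pair (0.82), with no treatment term, or with no filter on dim probes. WNT5B (0.31), WNT2 (0.20), WNT7A (-0.00) and WNT16 (-0.18) gave differences that did not pass. WNT5B averaged 8.49 ± 0.18 in the YAP(5SA) line and 8.18 ± 0.26 in the GFP line, and WNT2 averaged 8.12 ± 0.38 in the YAP(5SA) line and 7.93 ± 0.14 in the GFP line. WNT7A averaged 8.19 ± 0.17 in the YAP(5SA) line and 8.19 ± 0.16 in the GFP line, and WNT16 averaged 9.06 ± 0.27 in the YAP(5SA) line and 9.24 ± 0.32 in the GFP line. All of these ligands overlapped between the lines. The ligands below the filter were WNT1, WNT2B, WNT3A, WNT4, WNT5A, WNT6, WNT8A, WNT8B, WNT9A, WNT9B, WNT10A and WNT11.

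Inside the cell no member passed the test. AXIN1, the scaffold of the complex that destroys beta-catenin, averaged 11.53 ± 0.25 in the YAP(5SA) line and 11.70 ± 0.13 in the GFP line (SD, n = 3 arrays each). NKD1 and NKD2, which dampen signalling at Dishevelled, gave differences of -0.36 and -0.21. Each had a dimmer probe below the filter that was lower in the YAP(5SA) line without overlap of the arrays. These gave mean differences of -0.79 for NKD1 and -0.48 for NKD2, and were not tested. NKD1 averaged 10.50 ± 0.42 in the YAP(5SA) line and 10.87 ± 0.34 in the GFP line, and NKD2 averaged 9.39 ± 0.28 in the YAP(5SA) line and 9.59 ± 0.39 in the GFP line. The TCF/LEF factors TCF7L2 (-0.06), TCF7L1 (-0.03) and LEF1 (-0.24) differed by less than 0.3. TCF7L2 averaged 12.08 ± 0.09 in the YAP(5SA) line and 12.14 ± 0.17 in the GFP line, TCF7L1 averaged 10.18 ± 0.23 in the YAP(5SA) line and 10.21 ± 0.37 in the GFP line, and LEF1 averaged 8.07 ± 0.28 in the YAP(5SA) line and 8.31 ± 0.49 in the GFP line. The 2 LEF1 probes went opposite ways, with means of -0.24 and 0.47, and neither passed. The dimmer of the LEF1 probes was the member probe just above the filter (mean log2 level 7.80), and that of FZD9 lay just below it (7.65). AXIN2, the most widely used reporter gene of the pathway, lay below the filter, with 6.70, 6.83 and 6.70 in the YAP(5SA) line and 7.03, 6.90 and 7.24 in the GFP line.

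**Figure D3:**
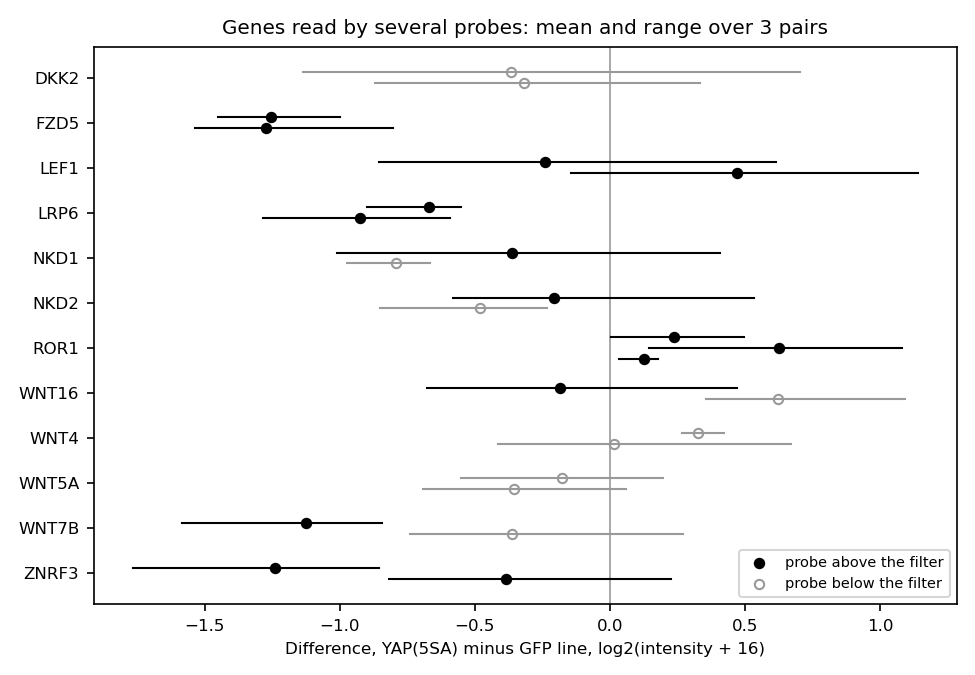
Log2 differences, YAP(5SA) minus GFP line, of the 12 members read by more than 1 probe, with 1 row a probe, the brightest first. Points are means over 3 pairs and lines run from the lowest to the highest pair; filled points are probes above the filter. The FZD5 and LRP6 probes lie on the same side of 0, while the LEF1 and WNT16 probes lie on opposite sides.

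The pairs of arrays did not give the same picture for every member. Of the 28 members, 11 were above 0 in the TNFa pair and below 0 in the IL-1b and vehicle pairs, which is 39.3%, against 20.4% of all genes tested. None of these 11 had a call. The members' median difference was -0.48 in the IL-1b pair, 0.32 in the TNFa pair and -0.49 in the vehicle pair. Over all genes tested it was -0.07, 0.17 and -0.10 in these pairs, so the TNFa pair stood apart in the whole table as well. LEF1, for example, gave -0.86, 0.61 and -0.48, and NKD1 gave -1.01, 0.41 and -0.49 in the IL-1b, TNFa and vehicle pairs. Without the TNFa pair, FZD7 (-0.64), NKD1 (-0.75) and LEF1 (-0.67) passed the test and 12 members, 42.9%, were called lower. Lower calls then made up 12% of all genes as well, against 8.91% with all pairs, and higher calls 6.65%. Without the IL-1b pair 6 members were called lower and 1 higher, and the count over all genes was 1023, which is 8.28%. The part of the arrays' overall shift in these values was not tested.

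Few of these genes passed the test for a cytokine response at 60 min. With IL-1b, 1 of 28 members passed, DKK1, which was lower, where 2.36% of all genes did, 1.32% higher and 1.04% lower. At an unadjusted p under 0.05 the IL-1b count was 4 members, 14.3%, near the 15.1% of all genes. DKK1 had log2 levels of 10.61 with IL-1b and 12.13 with vehicle in the YAP(5SA) line, and of 13.38 with IL-1b and 14.12 with vehicle in the GFP line. IL-1b was thus lower by 1.51 in the YAP(5SA) pair and by 0.74 in the GFP pair, and the mean change was -1.13 ± 0.26 (limma SE, 2 pairs, adjusted p = 0.0146). The call was lost when the YAP(5SA) vehicle array was dropped (-0.67), when either IL-1b array was dropped (-1.25 without that of the GFP line), with no filter on dim probes and with the mean of all probes. DKK1 was read by 1 probe, so its own values were the same with no filter and with the mean of all probes. In those settings only the fit over all genes changed. The other 27 members gave mean changes between -0.72 and 0.37, the lowest limma adjusted p being 0.143. LGR4 changed by -1.11 in the YAP(5SA) pair and -0.33 in the GFP pair, and WNT3 by -1.07 and -0.31 in these pairs; neither passed the test.

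With TNFa no member passed limma's test, where 0.769% of all genes did, 0.688% higher and 0.081% lower. At an unadjusted p under 0.05 the count was 0 members, against 4.46% of all genes. Mean changes ran from -0.35 to 0.48. TNFa shared its vehicle arrays with IL-1b. The TNFa change was above 0 in the YAP(5SA) pair and below 0 in the GFP pair for 20 of 28 members, which is 71.4%, against 45.3% of all genes. The median TNFa change of all genes was 0.09 in the YAP(5SA) pair and -0.19 in the GFP pair. By size, no member had a response to either cytokine of at least 1 that also differed by at least 1 between the lines, where 1.67% of all genes did with IL-1b and 1.58% with TNFa. The TNFa response alone differed by more than 1 between the lines for NKD2 (1.11), LEF1 (1.10) and DKK1 (-1.05), YAP(5SA) minus GFP. None of these responses reached 1 in either line, and the share of all genes with such a difference was not counted. With 1 array per condition these differences have no test.

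**Figure D4:**
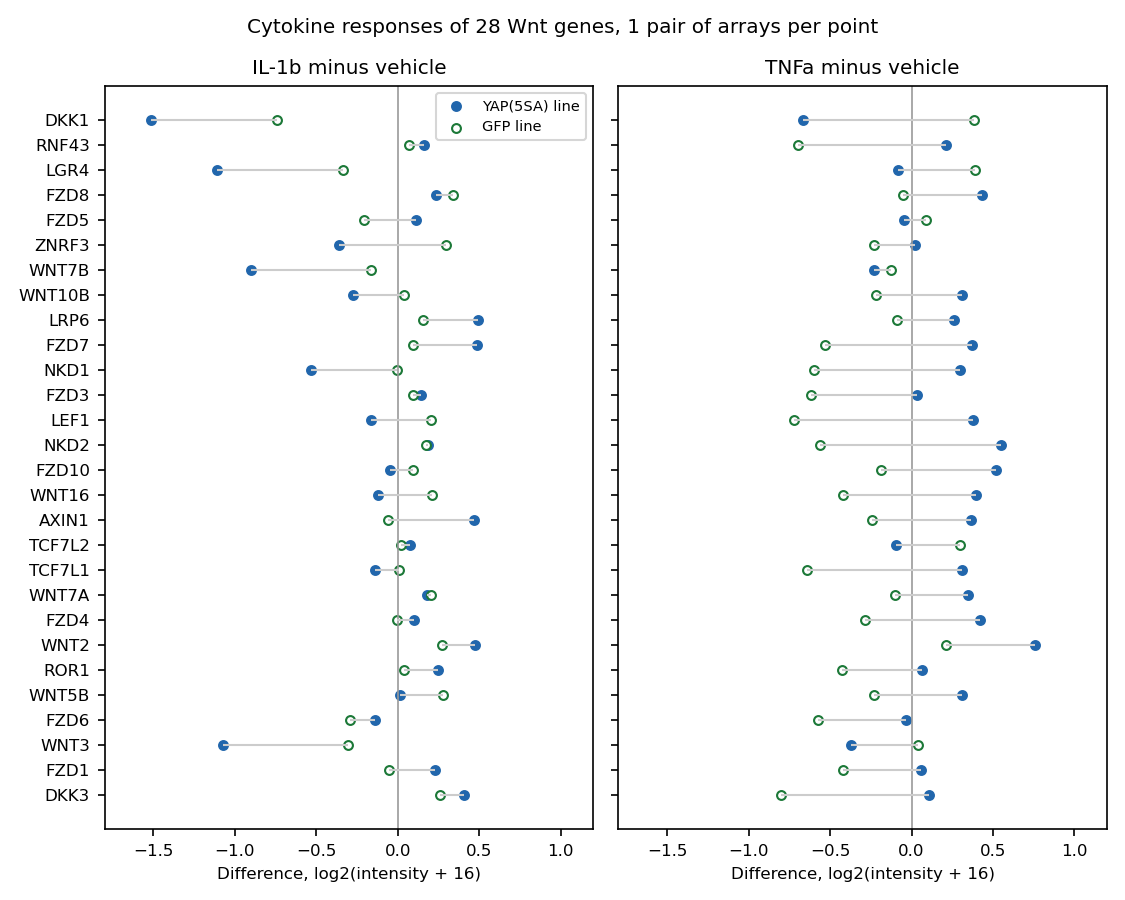
Log2 changes of the 28 members with IL-1b (left panel) and TNFa (right panel) against vehicle, 1 pair of arrays per point, filled for the YAP(5SA) line and open for the GFP line. With IL-1b, DKK1 lies farthest left in both lines; with TNFa most filled points lie to the right of 0 and most open points to the left.

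In the wider pathway, lists chosen with earlier results of these data known were counted in the same fit, in which 16.8% of all genes were called. Among 10 secretion factors and extracellular regulators above the filter, 2 fell and 0 rose, a share of 20% that is near that of all genes. RSPO3, an R-spondin and so a ligand of LGR4, had log2 levels of 13.08, 12.99 and 12.93 in the YAP(5SA) line under IL-1b, TNFa and vehicle, against 15.19, 14.81 and 15.05 in the GFP line. RSPO3 fell by 2.02 ± 0.20 (limma adjusted p = 4.73e-10) without overlap of the arrays, and held in all 17 alternatives. TPBG, a membrane inhibitor of Wnt signalling, fell by 0.62 (limma adjusted p = 0.0391). That call was lost in 8 of the 17, among them the runs without the IL-1b or the vehicle pair. The 17 count both arrays of each pair, although leaving out either gives the same line fit. Of 20 genes of the destruction complex and cytoplasm, 0 passed the test by limma, among them CTNNB1, which encodes beta-catenin (difference 0.06). Of 14 nuclear cofactors 1 fell, the corepressor TLE2 (-0.75), a share of 7.14%. In the planar polarity branch, 2 of 13 fell and 1 rose, together 23.1%. PRICKLE2 (-2.79 ± 0.21, limma adjusted p = 1.36e-13) and PRICKLE1 (-0.92) fell. The polarity scaffold SCRIB (0.59) rose, but its call was lost in 8 alternatives, and so whenever any pair was left out. The calls of TLE2 and PRICKLE1 each needed both the IL-1b and the vehicle pair, and were lost without either.

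Reported target genes of beta-catenin outside the symbol rule divided, with 10 of 18 lower and 4 higher. Together this is 77.8%, against 16.8% of all genes, and the median difference was -0.64 against -0.01. The list was chosen with earlier results of these data known, so these shares are not an independent comparison. The calls in this list with the largest absolute differences were MMP7, NRCAM, SOX9, BMP4, SOX4 and EDN1. MMP7, a matrix metalloproteinase, had 6.51, 5.85 and 6.23 in the YAP(5SA) line, close to the floor, against 13.57, 13.17 and 13.20 in the GFP line. MMP7 passed the filter through the GFP line alone. Its difference and its place among the 10 lower were thus partly fixed by the filter, as for RNF43. The adhesion molecule NRCAM fell by 3.89 ± 0.21 (limma adjusted p = 1.26e-17). SOX9 had 9.88, 9.71 and 9.33 in the YAP(5SA) line, against 11.88, 11.86 and 11.28 in the GFP line, a difference of -2.03 ± 0.20 (limma adjusted p = 3.56e-10). BMP4 (-1.94), the transcription factor gene SOX4 (-1.70) and EDN1 (-1.57), which encodes a vasoconstrictor peptide, fell as well, each without overlap of the arrays. Not every familiar target was lower. PLAUR, the urokinase receptor, rose by 1.53, and the adhesion receptor CD44 rose by 0.73, a call lost without the IL-1b pair. FOSL1 (0.87) and TWIST1 (0.60) also rose, and both calls were lost without the vehicle pair. Among the lower genes, the calls of TNFRSF19 (-0.63) and ID2 (-0.64) were lost without the IL-1b or the vehicle pair. The ID2 arrays overlapped between the lines. Of 20 line calls in all the wider lists, 10 held in every alternative. MYC (0.08) and CCND1 (0.31), the best known targets, did not pass the test. All of these genes have other regulators too, and a count in this list does not measure beta-catenin activity. With IL-1b, 3 of 75 genes of these lists passed, 4.0% against 2.36% of all genes. The growth factor gene FGF18 rose (1.23), with 0.68 in the YAP(5SA) pair and 1.78 in the GFP pair. The LY6 family gene LYPD6 rose (0.91, with 0.49 and 1.34 in these pairs), just inside the threshold (limma adjusted p = 0.0499). The corepressor CTBP1 fell (-1.04, with -1.49 and -0.60). These IL-1b calls were not followed through the alternatives. With TNFa no gene of these lists passed limma's test.

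**Figure D5:**
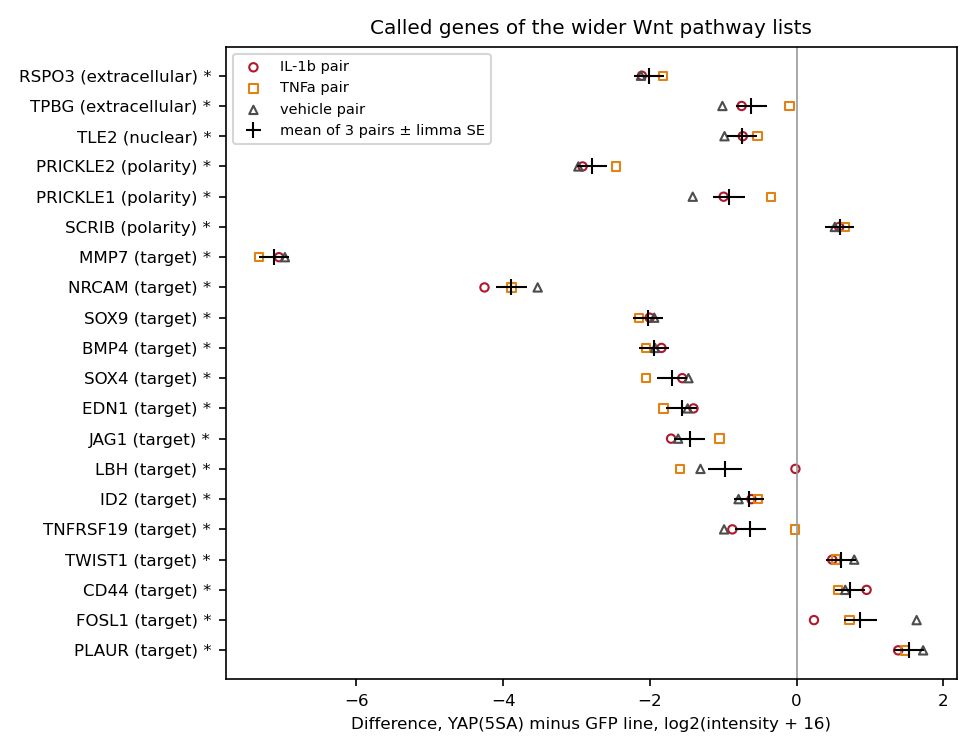
Log2 differences, YAP(5SA) minus GFP line, of the 20 called genes of the wider pathway lists, with the list in brackets. Open symbols are the 3 pairs of arrays, and the tick with its bar is the mean ± limma SE. MMP7 lies farthest from 0, and the RSPO3 pairs lie close together near -2.02.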

How the data were processed

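The authors deposited linear Cy5 probe intensities with background already subtracted: per array 10 to 1146 of 28264 probes lay below 0. How the arrays were scanned, background-corrected and scaled is not stated in the labels, and no detection calls came with the table. Per the labels' protocols, amplified RNA was labelled with dye through amino-allyl coupling. The platform annotation gave 25893 probes 1 gene each, 0 probes several, and left 2371 unnamed; symbols were updated through the RefSeq gene table.

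Negative intensities became 0 before log2(intensity + 16). Named probes in the lowest 40% by mean log2 value were dropped, and each gene was read by its brightest remaining probe, giving 12350 genes. Line and treatment were fitted additively with limma 3.58.1 (lmFit, eBayes) in R 4.3.3, with 2 residual and 34.3 prior degrees of freedom. P-values were adjusted by Benjamini-Hochberg over all genes at 0.05. The fit was tested on simulated data with independent noise drawn from the fitted model. That checks the calculation and not how well the model suits these arrays. All members above the filter were named, with every array given for those called. Of each wider list the called genes were named, up to 6 by size. CTNNB1, MYC, CCND1, PLAUR, CD44, FOSL1, TWIST1, TNFRSF19, ID2 and LGR6 were added after their values were seen. The members and lists were chosen with earlier results of these data known. Alternatives were other scalings, filters, probe rules and pseudocounts, eBayes with trend and robust estimation, no treatment term and leaving out each array; a filter and probe choice by linear mean was chosen after seeing the data.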

Additional observations from a re-analysis of the deposited data

Results flagged for a closer look

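One reading lay outside the tests because its probe fell below the filter on dim probes. SFRP1, a secreted frizzled-related protein that binds Wnt ligands, gave a log2 level of 10.30 on the YAP(5SA) IL-1b array. On the other 5 arrays it gave 4 and 4.70 in the YAP(5SA) line under TNFa and vehicle, and 5.05, 4 and 4.60 in the GFP line under IL-1b, TNFa and vehicle. The reading stood out because it was over 3 log2 units above every other array. It was read by 1 probe on 1 array, and a fault of that spot was not tested.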

How the results depend on the processing

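Of the 12 line calls among the members, 7 (DKK1, RNF43, LGR4, FZD8, FZD5, ZNRF3 and DKK3) passed in every alternative in which their chosen probe was tested; leaving out the dimmest 60% of probes left RNF43, FZD8, WNT10B and LRP6 untested, with 15 members. No called member changed sign under any alternative. Leaving out either array of a pair gives the same line fit. Without the IL-1b pair FZD1, LRP6, WNT10B, WNT3 and WNT7B were lost. With no filter, 12 of 52 members were called: LRP5, SFRP4 and SFRP5 were gained, and FZD1, LRP6 and WNT3 lost. FZD6 was gained with quantile normalization, median centring, a pseudocount of 64, eBayes with trend and robust estimation, and without the vehicle pair. Leaving out 1 array at a time, the members called ran from 7 to 14, genes called from 1023 to 2300, wider list calls from 12 to 19, and members called with IL-1b from 0 to 1. The count of all genes was 1383 with the dimmest 60% left out. With no treatment term 13 wider list genes were called. With IL-1b, 0 members were called with no filter and with the mean of all probes. With each probe tested on its own 2 were called, DKK1 and the dimmer FZD5 probe. That FZD5 probe gave -0.98, whereas the brighter FZD5 probe gave -0.05 and did not pass, so the probes differ on this response. Median centring called 1430 genes higher and 964 lower (59.7% higher, against 47.0%), and moved the median line difference of all genes to 0.08, against -0.01. Members past the size limits and members called with TNFa stayed at 0 in every alternative run. Dim probes limit the reading of the 24 members below the filter.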

Other observations

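Among the 24 members below the filter, 3 passed when no probe was left out, which is 12.5% and near the 9.96% of all genes called under that setting. All 3 were lower in the YAP(5SA) line. SFRP5, a secreted frizzled-related protein, had log2 levels of 4.28, 4.34 and 5.20 in the YAP(5SA) line under IL-1b, TNFa and vehicle, against 6.93, 6.58 and 7.24 in the GFP line. LRP5, the partner co-receptor of LRP6, had 5.78, 6.20 and 6.61 in the YAP(5SA) line, against 6.95, 7.66 and 7.51 in the GFP line. The limma difference without the filter was -2.31 for SFRP5 and -1.18 for LRP5. SFRP4 gave -0.96, with 1 of its arrays at the floor of 4. These levels are low and their calls depend on the absence of the filter.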
